A study of Drosophila melanogaster with 31 samples.

Results

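The genes described here encode eukaryotic translation initiation factors (eIFs) of Drosophila melanogaster. A gene was a member if the current FlyBase symbol of its FBgn identifier begins with eIF, which gave 44 of the 17559 genes in the count table. No measured value entered the choice. Genes that carry another symbol, such as NAT1, kra and CG7483, were not members.

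Initiation factors bring the small ribosomal subunit and the initiator tRNA to the start codon of an mRNA. The cap-binding protein eIF4E, the scaffold eIF4G and the RNA helicase eIF4A form the eIF4F complex at the mRNA cap, eIF2 carries the initiator tRNA in a GTP-bound ternary complex, eIF2B recharges eIF2 with GTP, and the many subunits of eIF3 sit on the small ribosomal subunit. The TORC1 kinase, which Tsc1 and its partner Tsc2 hold in check, acts on this step mostly through protein phosphorylation, above all of Thor, the Drosophila 4E-BP that competes with eIF4G for eIF4E. FoxO is a transcription factor that is held out of the nucleus by insulin signalling and whose known targets include Thor.

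RNA-seq was performed on 31 single clones of the larval eye imaginal disc, each cut out by laser ahead of the morphogenetic furrow and carrying few cells. The 4 genotypes were wt, foxoRi (wild-type clones with an RNAi transgene against foxo), Tsc1 (homozygous mutant clones made by mitotic recombination with the FRT82 site on chromosome arm 3R) and Tsc1 foxoRi. Larvae grew either on normal food or under nutrient restriction (NR), in which the yeast of the food was reduced, and NR larvae were dissected at a greater age, so that food and age cannot be told apart. The MARCM and Gal80ts systems limited the transgene to the clones, and it was switched on by moving larvae to 30 °C for 12 hr. The groups without the foxoRi label came from siblings raised at 25 °C, so that knockdown and temperature cannot be told apart. Whether these siblings carried the transgene is not stated in the sources used here. By the study's methods, larvae were not selected by sex. The tests used 29 libraries, namely 3 of wt on normal food, 2 of foxoRi under NR and 4 of each of the other 6 groups. The 2 libraries left out held 6610 and 4726 genes with a count, beside 9297 or more in the 29, and enter only the alternatives named below.

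The 29 libraries had 6878167 to 13316645 counts, of which the members took 0.258% to 0.567%. This share is of all counts, and rRNA genes took 33.7% to 64.6% of them. The member share was lowest in replicate 1 of Tsc1 foxoRi under NR, with 64.4% rRNA. It was highest in replicate 2 of Tsc1 under NR, with 33.7% rRNA. The RNAi label was checked on foxo itself. foxo was at 22.5 to 78.2 CPM (counts scaled to a common library size) with a median of 35.3 in the 14 libraries labelled foxoRi, and at 24.2 to 69.6 CPM with a median of 34.4 in the 15 others, a log2 fold change (FC) of 0.06 ± 0.15 (SE), so that the label could not be seen in the foxo level, and every knockdown comparison below rests on the label. The study also saw no drop of foxo transcripts in these samples. From nuclear FoxO staining of Tsc1 mutant clones, it judged the 12 hr shift to be enough for knockdown. In Kc167 cells it reports a loss of FoxO protein with only a partial loss of transcripts. Tsc1 mRNA had a median of 21.3 CPM in Tsc1 clones and 24.6 CPM in the others. The level of an mRNA does not check a mutation that leaves it in place. The eye field markers ey, toy, so, eya, dac, hth and tsh were above 5 CPM in all 29 libraries, and Optix in 27. Summed glial, hemocyte and germline markers were at most 18.0, 66.5 and 7.69 CPM, and fat body markers had a median of 12.0 CPM but reached 3121 CPM in replicate 3 of Tsc1 foxoRi under NR. Fat body markers were also at 848 and 431 CPM in replicates 3 and 4 of Tsc1 under NR. In libraries without the mutation they were at most 60.0 CPM. The RNA of roX1 and roX2, which is made in males, was over 200 CPM in 11 of the 29 libraries, 6 of 16 with the Tsc1 mutation, 8 of 14 labelled foxoRi and 3 of the 15 others.

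Levels per length differed widely between initiation factor genes, with 1 gene far above the rest and a set of duplicate genes that were nearly silent. Of the 44 members, 34 had a count in each of the 29 libraries and 38 passed the filter on low counts. The 6 that did not pass were eIF3d2, eIF3f2, eIF4E4, eIF4E6, eIF4E7 and eIF4H2. A further 3, eIF3g2, eIF4E3 and eIF4E5, passed through counts in a few libraries and had a median of 0 CPM, which leaves 35 members with a median of 5 CPM or more. Of these, only eIF2Bgamma was at 0 in a library, in 1 of 29.

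On a scale of CPM per kb of exon, eIF4A was highest, with a median of 313 and a range of 208 to 474 over the 29 libraries. The next genes in order of mean were eIF1 with a median of 88.5, eIF3e with 88.2, eIF3b with 82.2, eIF3k with 80.2 and eIF3i with 79.7, and the ranges of these overlapped. Of the eIF3 core, the subunits a, b, c, d1, e, f1, g1, h, i, k, l and m had medians between 49.5 and 88.2 CPM per kb. eIF3j, which binds the complex loosely, was lower at 23.0. The eIF2 subunits alpha, beta and gamma had medians of 27.8, 68.2 and 40.3 CPM per kb. All 5 subunits of eIF2B were lower, with medians of 6.16 for eIF2Bgamma, 7.60 for eIF2Balpha, 8.89 for eIF2Bepsilon and 10.4 for eIF2Bbeta, and a range of 4.57 to 23.6 for eIF2Bdelta.

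In the cap-binding family, eIF4E1 had a median of 74.5 CPM per kb with a range of 56.5 to 105.6. eIF4EHP, a cap-binding protein that does not bind eIF4G and acts in translational repression, was at 9.27 with a range of 4.97 to 13.0. The remaining copies eIF4E3, eIF4E4, eIF4E5, eIF4E6 and eIF4E7 reached at most 3.37 CPM per kb in any library and had medians of 0. The same held for the second copies of eIF3 subunits, with a highest value of 0.464 CPM per kb for eIF3d2, 0.957 for eIF3f2 and 2.80 for eIF3g2. eIF4H2, the second copy of eIF4H1, had a median of 0.0487 and a highest value of 1.00 CPM per kb. The main copies eIF3d1, eIF3f1 and eIF3g1 had medians of 70.5, 69.8 and 55.9. eIF4G2, a second eIF4G that is required for spermatogenesis, was different in that it was measured in each library, at 9.05 to 24.0 CPM per kb beside 29.1 to 79.9 for eIF4G1.

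**Figure D1:**
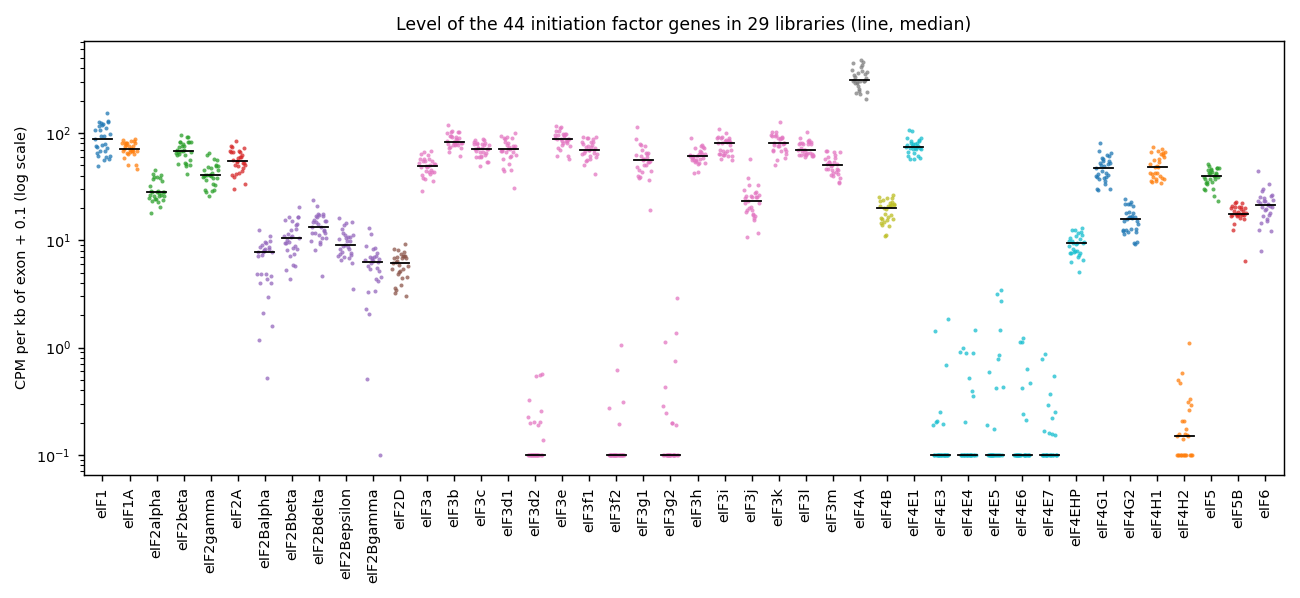
Level of each of the 44 members, ordered by factor along the x axis, as CPM per kb of exon plus 0.1 on a log scale. Each point is 1 of 29 libraries and each line a median. eIF4A stood above all others with a median of 313, and the second copies of eIF3 and eIF4E genes lay at or near 0.

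The first question was which initiation factors differ in Tsc1 mutant clones. The genotype effect was the mean difference over both foods, with and without knockdown, between 16 libraries with and 13 libraries without the mutation. By the rule for differential expression, an adjusted p under 0.2 with an absolute log2 FC over 0.8, none of the 38 tested members was called, while 7.56% of all 13526 tested genes were (edgeR's quasi-likelihood test with Benjamini-Hochberg adjustment). DESeq2 also called 0 members by this rule. At an unadjusted p under 0.05, 11 members were higher and 4 lower, beside 12.5% and 6.65% of all tested genes. Members are described below by the adjusted p alone.

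At an adjusted p under 0.05 with any fold, eIF4G1 and eIF2beta were higher (2 of 38, with 3.66% of all tested genes higher) and eIF4A was lower (1 of 38, with 2.25% of all tested genes lower).  At an adjusted p under 0.2 with any fold, 10 members were higher, beside 9.99% of all tested genes, and 3 were lower, beside 5.48%. The median log2 FC of the 38 members was 0.02 and that of all tested genes 0.15.

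eIF4G1 (FBgn0023213, chromosome 4, positions 915297 to 930715 of BDGP6), the scaffold of eIF4F, was the member with the smallest p. On normal food it was at 312, 262 and 253 CPM in wt, 198, 191, 270.5 and 241 in foxoRi, 445, 524, 346 and 331 in Tsc1 and 381, 288, 376 and 358 in Tsc1 foxoRi clones. Under NR it was at 323, 248, 219.8 and 232 CPM in wt, 278 and 256 in foxoRi, 412, 263, 339 and 402 in Tsc1 and 360.3, 198, 345 and 426 in Tsc1 foxoRi clones. On normal food only 1 Tsc1 foxoRi library, at 288, lay below the highest library without the mutation, and under NR 1 library of each mutant genotype was low. Of the 16 mutant libraries, 13 were above every library of the 13 without the mutation. eIF4G1 rose 1.41-fold in Tsc1 clones, a log2 FC of 0.50 ± 0.12 (SE, adjusted p = 0.00796 with edgeR). In this and the other comparisons of whole clones, fewer cells with an mRNA and less of it per cell cannot be told apart.

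eIF4A (FBgn0001942, chromosome 2L, 5981764 to 5985909), the helicase that eIF4G1 holds in the complex, went the other way. On normal food it was at 957, 752 and 1117 CPM in wt, 779, 852, 822 and 721 in foxoRi, 585, 722, 737 and 906 in Tsc1 and 677, 613, 637 and 566 in Tsc1 foxoRi clones. Under NR it was at 759.7, 1013, 1174 and 931 CPM in wt, 1063 and 1143 in foxoRi, 759, 756, 876 and 776 in Tsc1 and 799, 515, 916 and 594 in Tsc1 foxoRi clones. The 2 sets overlapped, but each of the 16 mutant libraries was below the median of the 13 without the mutation, and 7 were below all of them. eIF4A fell to 0.75-fold, a log2 FC of -0.41 ± 0.10 (adjusted p = 0.0103 with edgeR).

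The third gene of the complex, eIF4E1, differed by a log2 FC of 0.00 ± 0.11 between the same libraries, with medians of 169 CPM with and 165 CPM without the mutation. The 3 subunits of eIF4F thus had fitted differences that were positive, negative and near 0. Within a library, the ratio of eIF4A to eIF4G1 per length does not depend on the library's scaling. It ranged from 3.48 to 7.62 with a median of 5.37 in the 16 mutant libraries and from 6.22 to 14.1 with a median of 10.4 in the 13 others. Both genes were taken from the genotype effect, so the ratio is given with no test. All 16 mutant libraries were below the median of the others, and 11 were below all of them.

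**Figure D2:**
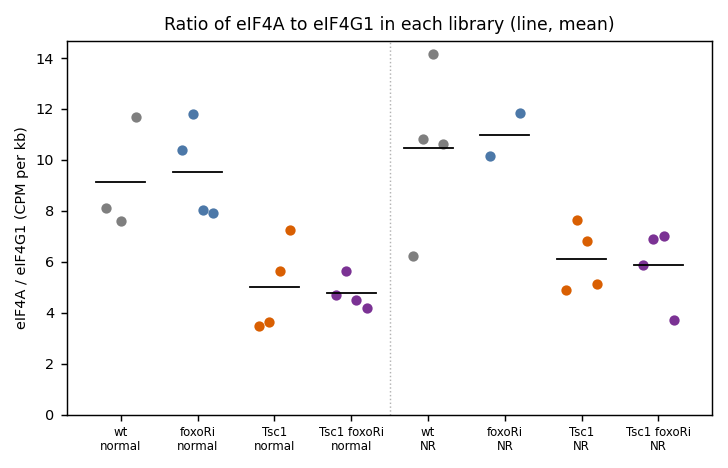
Ratio of eIF4A to eIF4G1 in CPM per kb on the y axis, for the 8 groups on the x axis, with 1 point per library and the group mean as a line. Mutant libraries spanned 3.48 to 7.62 and the others 6.22 to 14.1.

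eIF2beta (FBgn0004926, chromosome 3L, 12525093 to 12526731), the eIF2 subunit that contacts eIF5 and eIF2B, was the other gene that rose. On normal food it was at 73.5, 78.2 and 69.8 CPM in wt, 58.3, 75.1, 82.4 and 72.1 in foxoRi, 92.5, 92.9, 107 and 76.9 in Tsc1 and 84.6, 76.3, 88.8 and 78.1 in Tsc1 foxoRi clones. Under NR it was at 84.2, 69.4, 59.2 and 57.7 CPM in wt, 55.2 and 46.5 in foxoRi, 103, 91.9, 102 and 93.7 in Tsc1 and 62.9, 56.8, 91.8 and 75.4 in Tsc1 foxoRi clones. The 4 Tsc1 libraries under NR were all above the wt and foxoRi libraries, while 3 of 4 Tsc1 foxoRi libraries under NR lay within them. The log2 FC was 0.38 ± 0.10, or 1.31-fold (adjusted p = 0.0176 with edgeR).

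Leaving out 1 library of foxoRi under NR, the group with only 2, ended these calls for the rising genes. That left 1 library in the group and changed the filter. The number of tested genes went from 13526 to 15487 without replicate 1 and to 15461 without replicate 2. The log2 FC of eIF4G1 was then 0.50 without replicate 1 and 0.47 without replicate 2, and that of eIF2beta 0.39 and 0.33. With all 31 libraries, the log2 FC of eIF2beta was 0.18 (adjusted p = 0.670) and that of eIF4A -0.38 (adjusted p = 0.0662). Photoreceptor markers (elav, ato, sca, chp, gl, ninaE, nSyb and boss) also differed with genotype, with a summed level of 52.5 to 1362 CPM (median 124) in mutant and 86.2 to 1029 CPM (median 407) in other libraries. ninaE, the rhodopsin of mature photoreceptors, was at 0 in 19 of 29 libraries. With that sum as a covariate, the log2 FC was 0.40 for eIF4G1 (adjusted p = 0.0639), 0.33 for eIF2beta (adjusted p = 0.0896) and -0.38 for eIF4A (adjusted p = 0.0464). Summed muscle markers were at 14.7 to 104 CPM (median 33.1) in mutant and 4.45 to 28.5 CPM (median 13.2) in other libraries, and their part in these differences was not tested. Summed fat body markers were at 1.04 to 3121 CPM (median 10.8) in mutant and 1.73 to 60.0 CPM (median 12.0) in other libraries. Their part was not tested either.

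The pooled effect is the mean of 4 comparisons of Tsc1 with its control, so that their directions are not separate support. In the 4 comparisons of Tsc1 with its control at fixed food and knockdown, the log2 FC of eIF4G1 was between 0.32 and 0.64 and that of eIF2beta between 0.19 and 0.53, while that of eIF4A was between -0.64 and -0.29. Of the 35 members with a median of 5 CPM or more, 10 had a positive and 3 a negative log2 FC in all 4. The same count over all tested genes was not made. Chromosome arm 3R, which carries the FRT82 site, holds 13 of the 44 members but none of these 3 genes. By the study's methods, control clones were made with FRT82 too. Any part of the arm in these differences was not tested.

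The other subunits of eIF2 also had positive values, 0.36 ± 0.13 for eIF2gamma (adjusted p = 0.103) and 0.27 ± 0.13 for eIF2alpha (adjusted p = 0.236, edgeR). Of the 5 subunits of eIF2B, the guanine nucleotide exchange factor of eIF2, 4 had a positive log2 FC. eIF2Bdelta was at 22.8 to 45.4 CPM (median 32.5) in mutant and 9.93 to 51.2 CPM (median 23.8) in other libraries, with a log2 FC of 0.44 ± 0.15 (adjusted p = 0.0791). 15 of 16 mutant libraries were above the median of the others, but the highest library of all was a foxoRi clone. eIF2Bbeta had a log2 FC of 0.50 ± 0.19 (adjusted p = 0.131), while those of eIF2Balpha, eIF2Bepsilon and eIF2Bgamma were 0.31, 0.16 and -0.06 at adjusted p values of 0.694 or more.

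Of the factors of scanning and start codon choice, eIF1 differed by 0.43 ± 0.15 on the log2 scale (adjusted p = 0.105, edgeR). For eIF5, which triggers GTP hydrolysis by eIF2, the log2 FC was 0.27 ± 0.11 (adjusted p = 0.147). eIF5 was at 73.8 to 164 CPM (median 140.0) in mutant and 82.1 to 137 CPM (median 111) in other libraries, and 15 of 16 mutant libraries were above the median of the others. eIF1A, the partner of eIF1, had a log2 FC of -0.10 ± 0.10.

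The subunits of eIF3 did not move as a block. Of the 14 tested, 4 had a positive and 10 a negative log2 FC, with a median of -0.09. The largest positive values among those with a median of 5 CPM or more were 0.48 ± 0.18 for eIF3j (adjusted p = 0.119) and 0.31 ± 0.13 for eIF3d1 (adjusted p = 0.181, edgeR), the latter the subunit that can itself bind the cap in human cells. eIF3c, which contacts eIF1 and eIF5, was at 162 to 266 CPM (median 218) in mutant and 197 to 288 CPM (median 259) in other libraries, with a log2 FC of -0.24 ± 0.09 (adjusted p = 0.129). DESeq2 gave eIF3c an adjusted p of 0.0213.

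eIF2A, which can deliver initiator tRNA outside the canonical route, had a log2 FC of -0.30 ± 0.12 (adjusted p = 0.162, edgeR). On normal food it was at 189.8, 186 and 215 CPM in wt and at 83.7, 109.5, 141 and 116 CPM in Tsc1 clones, which did not overlap, and the log2 FC was -0.81 ± 0.25 with an adjusted p of 0.205, so that it just missed the call. Without the fold limit 0 of the members passed an adjusted p under 0.2 there. Tsc1 foxoRi clones on normal food were at 237, 151, 153 and 139 CPM and foxoRi clones at 211, 115, 157 and 186 CPM, with a log2 FC of 0.02 ± 0.23 between them. The difference between these 2 genotype effects was not tested.

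The cap-binding repressor eIF4EHP had a log2 FC of 0.30 ± 0.13 (adjusted p = 0.188), eIF4G2 one of -0.22 ± 0.12 (adjusted p = 0.332, edgeR). For the helicase partners eIF4B and eIF4H1 the values were -0.05 ± 0.12 and 0.21 ± 0.12. For eIF5B, which joins the ribosomal subunits, and eIF6, which keeps them apart, they were 0.00 ± 0.13 and 0.19 ± 0.19. The values of eIF2D, a factor of initiation without eIF2, differed by 0.04 ± 0.19.

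**Figure D3:**
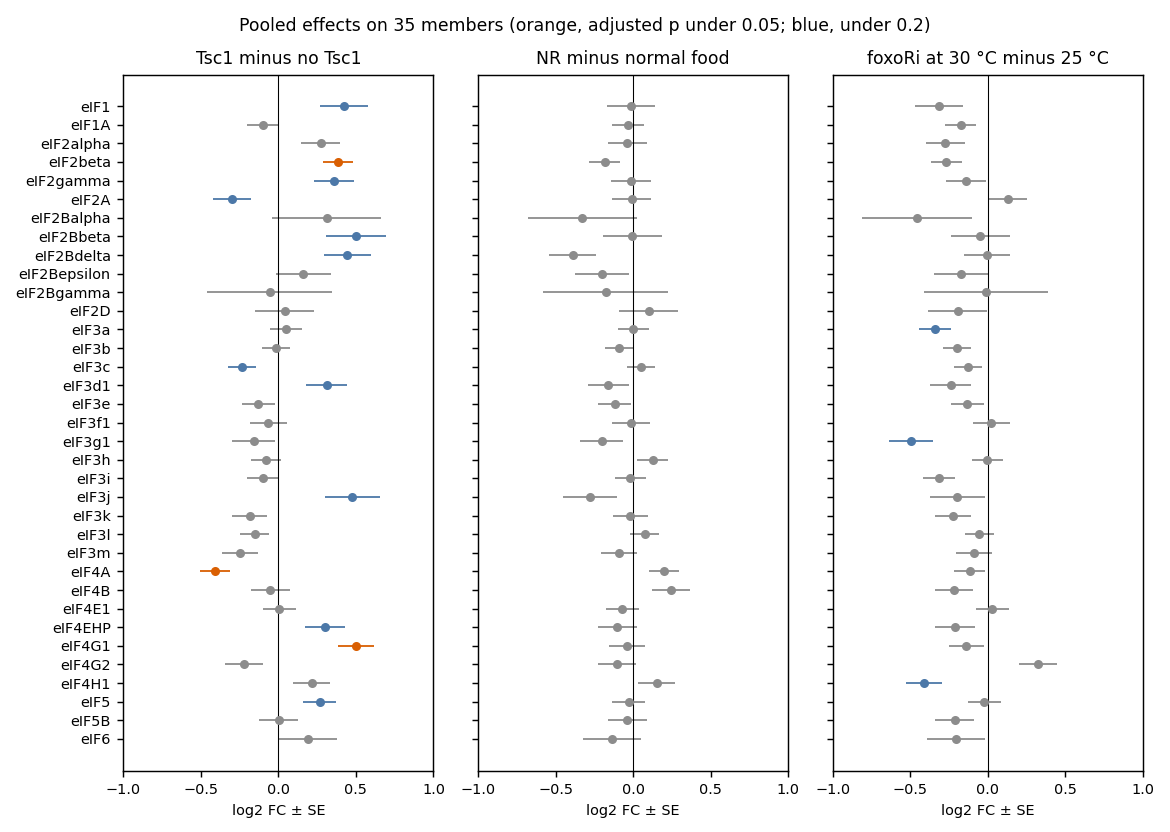
Pooled log2 FC with its SE on the x axis for the 35 members with a median of 5 CPM or more, for the Tsc1 genotype, food, and knockdown with temperature. Orange marks an adjusted p under 0.05 (eIF4G1 at 0.50, eIF2beta at 0.38, eIF4A at -0.41) and blue one under 0.2.

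Genes that act on initiation were examined as a list of 19. In Tsc1 clones 5 of 19 were higher and 2 lower at an adjusted p under 0.2 with any fold, beside 9.99% and 5.48% of all tested genes. The median log2 FC was 0.15 for the list and 0.15 for all tested genes. Thor, the 4E-BP, had the largest fitted difference, 3.68 ± 1.07 on the log2 scale (adjusted p = 0.0386, edgeR). Its level was low, at 0 to 20.6 CPM (median 1.53) in mutant and 0 to 2.28 CPM (median 0) in other libraries. On normal food the log2 FC was 1.21 ± 1.73 for Tsc1 against wt and 1.10 ± 1.58 for Tsc1 foxoRi against foxoRi. Under NR the values were 3.26 ± 1.68 and 9.16 ± 3.22. In the last comparison the 2 foxoRi libraries were at 0 CPM, so the size of the pooled value is not read. The others that rose at this threshold were larp, which binds the start of ribosomal protein mRNAs, the helicase bel, the eIF2alpha kinase PEK and the decapping activator me31B, with log2 FCs of 0.31, 0.23, 0.37 and 0.28. Lk6, the kinase of eIF4E, fell by 0.33 and the poly(A)-binding protein pAbp by 0.27. NAT1, a relative of eIF4G without the eIF4E-binding site, was at 275.6 ± 48.5 CPM (SD, n = 29) with a log2 FC of -0.08 ± 0.09.

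Of 9 tested factors of elongation, termination and recycling, 2 were higher and 1 lower at an adjusted p under 0.2, beside 9.99% and 5.48% of all tested genes. The lower one was pix, the ABC protein that splits ribosomes for a new round of initiation, with a log2 FC of -0.65 ± 0.10 (adjusted p = 0.000217, edgeR). Of 81 tested ribosomal protein genes, 2 were higher and 2 lower at that threshold, beside the same shares of all tested genes. Their median log2 FC was -0.04 and that of all tested genes 0.15. Myc, a regulator of ribosome production, was at 105.0 to 325 CPM (median 189) in mutant and 155 to 538 CPM (median 248) in other libraries (log2 FC -0.48 ± 0.16, adjusted p = 0.0686).

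The second question was how the factors differ with the foxo RNAi label, which is also the shift to 30 °C. None of the 38 members was called by the rule with the fold limit, beside 0.917% of all tested genes, and DESeq2 called 0. At an unadjusted p under 0.05, 8 members were lower and 1 higher, beside 5.29% and 5.56% of all tested genes. At an adjusted p under 0.2 with any fold, 3 members were lower, beside 1.07% of all tested genes, namely eIF3g1, eIF4H1 and eIF3a. The log2 FC was negative for 31 of the 38, with a median of -0.16, while the median of all tested genes was 0.02.

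eIF3g1 (FBgn0029629, chromosome X, 2609247 to 2610336), an RNA-binding subunit of eIF3, was at 63.8, 89.2 and 116 CPM in wt, 49.4, 41.1, 39.0 and 46.3 in foxoRi, 39.5, 81.5, 62.8 and 78.8 in Tsc1 and 71.7, 44.7, 57.4 and 58.4 in Tsc1 foxoRi clones on normal food. Under NR it was at 51.7, 58.7, 77.4 and 66.8 CPM in wt, 51.1 and 61.5 in foxoRi, 64.7, 54.4, 66.3 and 55.0 in Tsc1 and 37.3, 55.6, 19.7 and 45.6 in Tsc1 foxoRi clones. The groups did not overlap for wt and foxoRi on normal food, and 13 of 14 libraries labelled foxoRi were below the median of the 15 others. The log2 FC was -0.50 ± 0.14 (adjusted p = 0.148, edgeR).

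eIF4H1 (FBgn0262734, chromosome X, 16448665 to 16454972), a stimulator of eIF4A, was at 229, 189 and 294 CPM in wt, 157, 155, 182 and 173 in foxoRi, 331, 249.9, 212 and 188 in Tsc1 and 156, 165, 217 and 189 in Tsc1 foxoRi clones on normal food. Under NR it was at 303, 211, 255 and 237 CPM in wt, 174 and 151 in foxoRi, 281, 169, 316 and 286 in Tsc1 and 274, 163, 263 and 296 in Tsc1 foxoRi clones. The foxoRi libraries were below all wt libraries on both foods, whereas Tsc1 and Tsc1 foxoRi overlapped on both. The log2 FC was -0.41 ± 0.12 (adjusted p = 0.148). The deposited values of eIF4H1 were not whole in 27 of 31 libraries, so that part of its reads were shared between features. The same held for other members, among them eIF4B in 27 libraries, eIF4G2 in 25 and eIF4G1 in 12.

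eIF3a (FBgn0037249, chromosome 3R, 4429798 to 4433895), the largest subunit of eIF3, was at 203, 222 and 246 CPM in wt, 185, 112, 158 and 146 in foxoRi, 210.5, 258, 222 and 211 in Tsc1 and 144, 193, 172 and 188 in Tsc1 foxoRi clones on normal food. Under NR it was at 240.4, 193, 169 and 221 CPM in wt, 196 and 161 in foxoRi, 264, 174, 169 and 211 in Tsc1 and 138, 198, 168 and 200.2 in Tsc1 foxoRi clones. On normal food both foxoRi genotypes were below their controls with no overlap, and under NR both pairs overlapped. All 14 libraries labelled foxoRi were below the median of the 15 others, with a log2 FC of -0.34 ± 0.10 (adjusted p = 0.163).

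**Figure D4:**
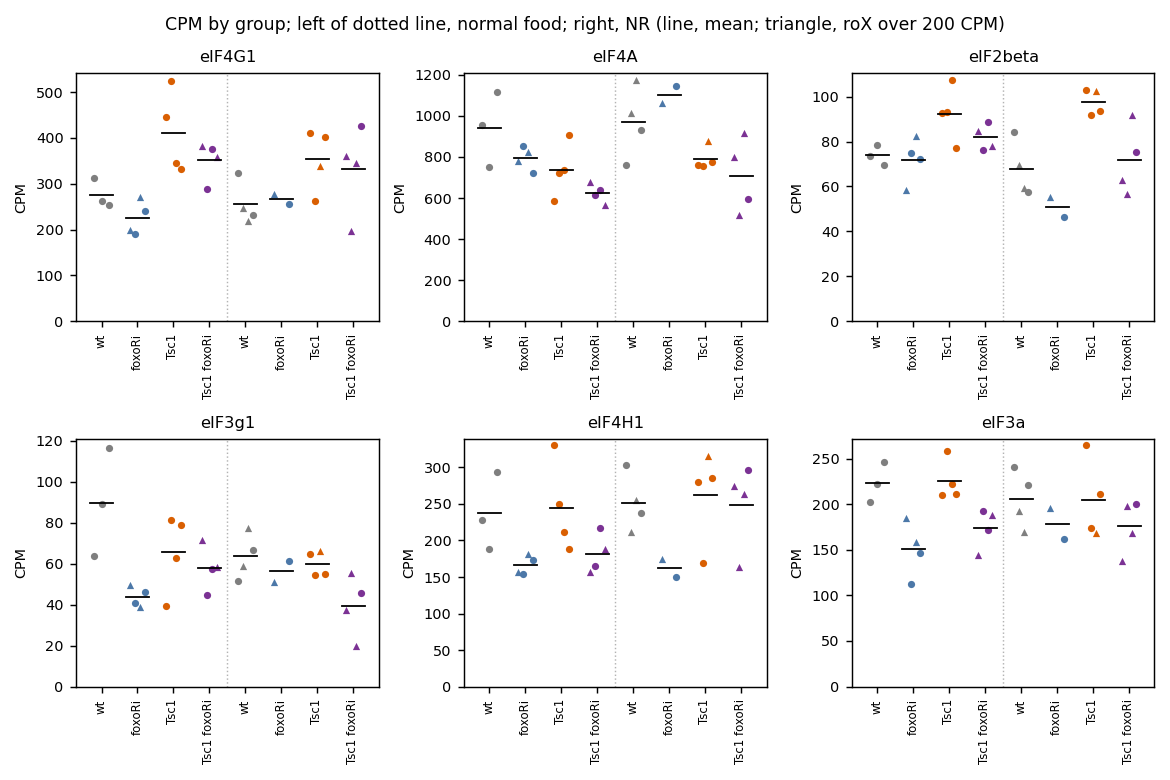
CPM of 6 members in the 8 groups on the x axis, with 1 point per library, the group mean as a line and triangles for libraries over 200 CPM of roX RNA. Each mutant group had a higher mean of eIF4G1 and eIF2beta and a lower mean of eIF4A than the group without the mutation on the same food and with the same label, and each group labelled foxoRi had a lower mean of eIF3g1, eIF4H1 and eIF3a than the group without the label on the same food and of the same genotype.

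Photoreceptor markers moved with the label too, at 66.8 to 1029 CPM (median 341) in libraries labelled foxoRi and 52.5 to 1362 CPM (median 121) in the others. With their sum as a covariate the log2 FC was -0.48 for eIF3g1 (adjusted p = 0.166), -0.32 for eIF4H1 (adjusted p = 0.218) and -0.32 for eIF3a (adjusted p = 0.212), so that the last 2 no longer passed. With roX RNA as a covariate the log2 FC was -0.52 for eIF3g1 (adjusted p = 0.190), -0.41 for eIF4H1 (adjusted p = 0.238) and -0.31 for eIF3a (adjusted p = 0.301). With all 31 libraries the log2 FC was -0.61, -0.43 and -0.47 in the same order, and the adjusted p was 0.614, 0.304 and 0.699. DESeq2 gave 0.0690, 0.0547 and 0.0547. As single libraries were left out, the adjusted p ranged from 0.0732 to 0.372 for eIF3g1, from 0.0816 to 0.504 for eIF4H1 and from 0.109 to 0.539 for eIF3a. eIF3g1 and eIF4H1 lie on the X chromosome together with 5 more of the 44 members, and roX RNA was over 200 CPM in more of the libraries labelled foxoRi.

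The eIF3 subunits lay mostly on 1 side here, with 12 of 14 negative and a median log2 FC of -0.16. This was not particular to eIF3, since only 7 of all 38 members were positive, also with a median of -0.16. For eIF3i, a WD40 subunit, the log2 FC was -0.32 ± 0.10 (adjusted p = 0.206, edgeR), and for eIF3b it was -0.20 ± 0.09 (adjusted p = 0.428). All 3 subunits of eIF2 were negative, with -0.27 ± 0.10 for eIF2beta (adjusted p = 0.277). eIF4G2 had the largest positive value among the 35 members, 0.32 ± 0.12 (adjusted p = 0.298), at 87.5 to 218 CPM (median 155) in libraries labelled foxoRi and 82.4 to 204 CPM (median 113) in the others. eIF4E1 and eIF4A differed by 0.03 ± 0.11 and -0.12 ± 0.10. Among the other genes of the machinery, 14 of 81 ribosomal protein genes were lower and none higher at an adjusted p under 0.2. Of all tested genes 1.07% were lower at that threshold. The median log2 FC was -0.23 for the ribosomal protein genes and 0.02 for all tested genes. The elongation factor eEF2 fell by 0.38 ± 0.09 on the log2 scale (adjusted p = 0.0537), and of the 19 regulators only MCTS1, a partner of DENR in reinitiation, passed an adjusted p under 0.2, at -0.53 ± 0.15 (adjusted p = 0.150).

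The third question was the effect of NR. No member was called, beside 0.104% of all tested genes, DESeq2 called 0, and 1 member was higher and 1 lower at an unadjusted p under 0.05, beside 4.84% and 2.01% of all tested genes. The members' median log2 FC was -0.03. The lower one was eIF2Bdelta, with a log2 FC of -0.39 ± 0.15 (adjusted p = 0.539, edgeR). All 5 subunits of eIF2B had negative values, but only 10 of all 38 members were positive here. Among the 35 members, the smallest p on the positive side belonged to eIF4A, at 0.20 ± 0.10 (adjusted p = 0.733), and eIF4B, at 0.24 ± 0.12 (adjusted p = 0.738). eIF4G1 and eIF4E1 differed by -0.04 ± 0.11 and -0.07 ± 0.11.

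The 1 higher member was eIF4E5, one of the nearly silent copies. It had counts in 8 of 14 libraries under NR, reaching 3.44 CPM, and was at most 0.507 CPM on normal food. It passed the filter only through such libraries, so its test is not read.

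Members were also compared within each single pair of groups. By the rule with the fold limit, none of the 38 was called in any of 12 pairs. The share of all tested genes called was 1.24% for Tsc1 against wt and 0.843% for Tsc1 foxoRi against foxoRi on normal food, and 0.665% and 1.53% for the same pairs under NR. It was 0.0% for NR against normal food in wt and foxoRi clones, 0.0444% in Tsc1 and 1.58% in Tsc1 foxoRi clones. For foxoRi against wt it was 0.0813% on normal food and 0.0% under NR, and for Tsc1 foxoRi against Tsc1 0.0591% and 0.872%. Between 1 and 8 of the 38 members had an unadjusted p under 0.05 in a pair, beside 3.81% to 13.3% of all tested genes, and the 8 were in Tsc1 foxoRi against foxoRi under NR, where the share of all genes was 13.3%. DESeq2 called 1 member in Tsc1 against wt on normal food (eIF2A), 1 in foxoRi against wt on normal food (eIF3g1), 2 in Tsc1 foxoRi against foxoRi under NR (eIF2Bbeta and eIF2Bdelta) and 0 in the other 9. DESeq2 called 2.96%, 1.57% and 9.66% of all tested genes in these 3 pairs.

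The difference of the genotype effect between NR and normal food was tested as an interaction. 1 member, eIF3g2, was called as higher, beside 3.64% of all tested genes, or 492, called in that direction. That number was 17 with the replicate block, 20 with the roX covariate, 10 with detected genes as a covariate and 26 without the filter, and eIF3g2 was called in none of these, nor with DESeq2 or all 31 libraries. eIF3g2, the second copy of eIF3g1, was at 0 in 19 of 29 libraries, and its highest counts were 37 and 10 in Tsc1 foxoRi libraries under NR, 8 in a foxoRi library on normal food and 7 in a Tsc1 library under NR. It passed the filter only through such libraries, so the call is no evidence of a difference. Its highest value was 2.74 CPM, in a library with 14126 detected genes. eIF4G2 had a log2 difference of -0.70 ± 0.24 (adjusted p = 0.199, edgeR), under the fold limit. Its log2 FC was 0.38 ± 0.25 for Tsc1 against wt on normal food and -0.54 ± 0.23 under NR, and -0.13 ± 0.23 and -0.60 ± 0.27 for Tsc1 foxoRi against foxoRi, so that it was positive in 1 of the 4.

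**Figure D5:**
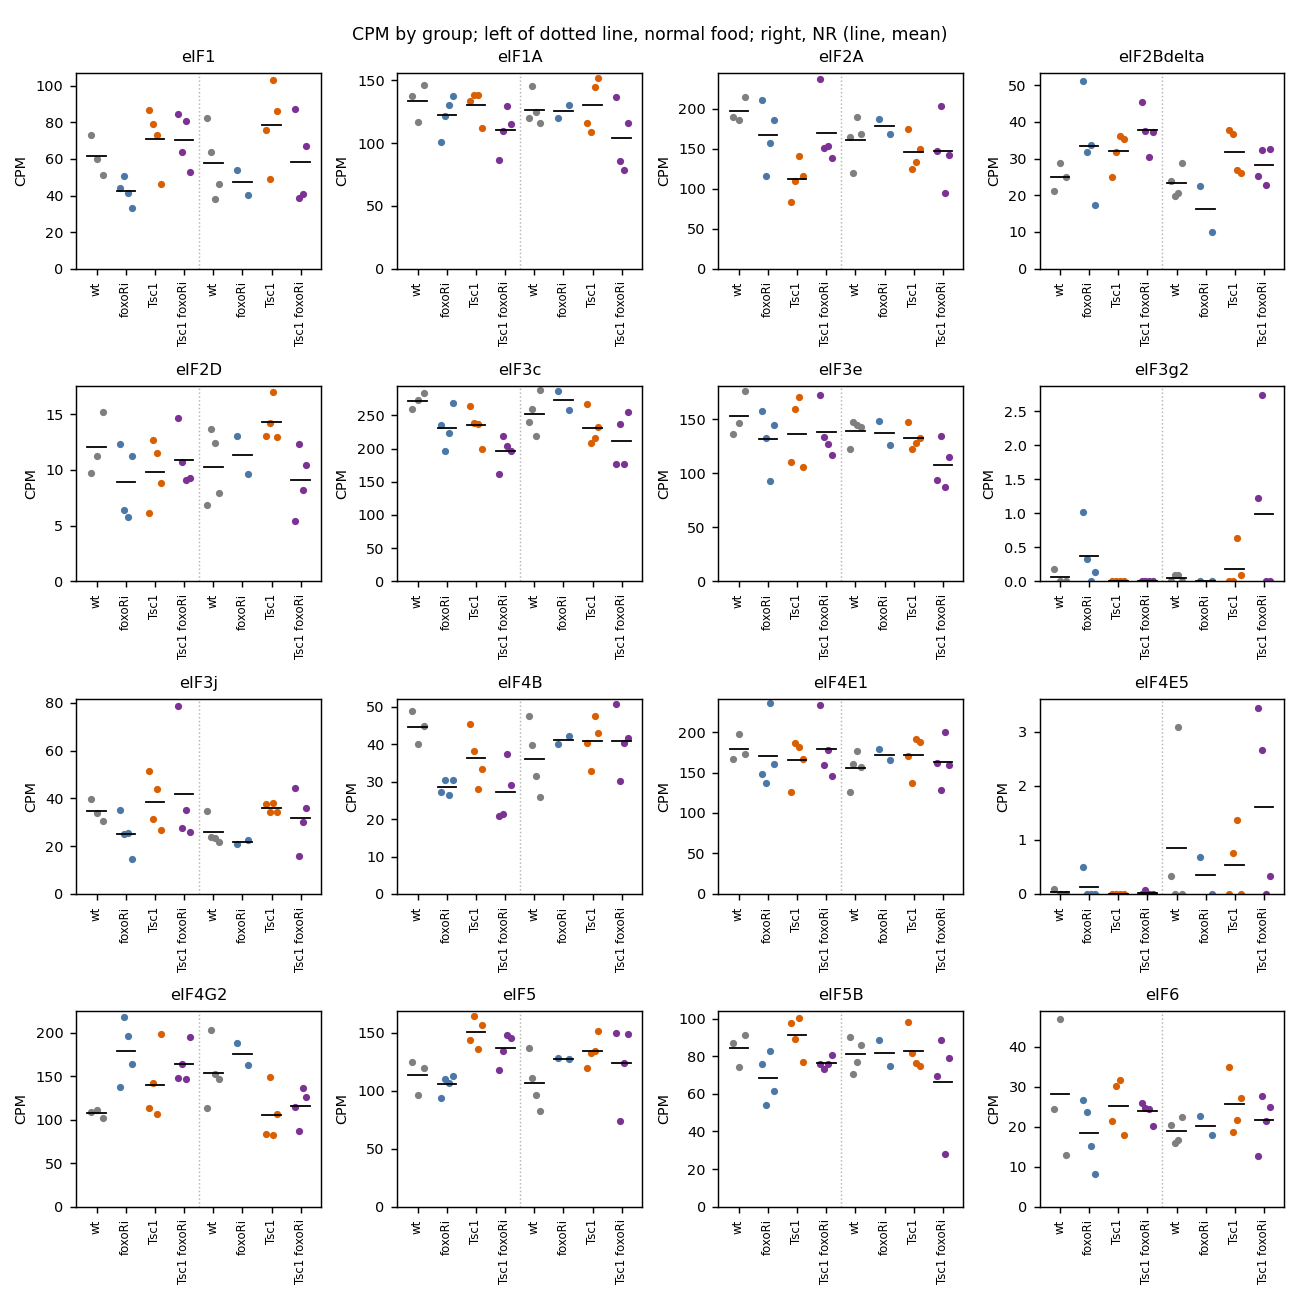
CPM of 16 further members in the 8 groups on the x axis, with 1 point per library and the group mean as a line. eIF2A was lowest in Tsc1 clones on normal food, and eIF3g2 and eIF4E5 reached at most 2.74 and 3.44 CPM.

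Finally, the 35 members with a median of 5 CPM or more were compared across the 29 libraries by Spearman's rho of their log2 CPM, as a description with no test, since all share the scaling of the library. Group means were not removed, so that the genotype differences described above enter each rho. The median over 595 pairs was 0.14. It was 0.55 over the 3 pairs of eIF2 subunits, 0.27 over the 78 pairs of eIF3 subunits and 0.08 over the 10 pairs of eIF2B subunits. The genes most like eIF4G1 were eIF5 with a rho of 0.79, eIF1 with 0.73 and eIF2beta with 0.69, and the gene least like it was eIF4A with -0.42. The genes most like eIF4A were the eIF3 subunits eIF3l, eIF3m and eIF3k, with 0.55, 0.44 and 0.43. The spread of single members differed too, with a coefficient of variation of 14.6% for eIF3l and 14.8% for eIF3c, 26.3% for eIF4G1 and 37.8% for eIF3j.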

How the data were processed

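The authors made libraries with the Ovation SoLo kit, mapped reads to BDGP6 with STAR and counted them with featureCounts, and the submitters' processing notes also name Trimmomatic. They deposited estimated counts per gene without normalization, of which 17.1% were not whole, and these were rounded here. Whether counting used strand is not given in the sources used here, and 19 members share exon sequence with another gene. Differential expression was fitted in R 4.3.3 with edgeR 4.0.16 (TMM, filterByExpr by 8 groups, quasi-likelihood, 13526 genes), with Benjamini-Hochberg adjustment over all tested genes and SE taken as the absolute log2 FC over the square root of F. CPM use the TMM library size, and levels per length divide by the exon union of BDGP6.54. Nothing in the labels says that replicates came from separate animals, so p-values measure the spread between clones. DESeq2 1.42.0 and the covariate, filter, scaling and left-out-library alternatives stand below; the roX and photoreceptor covariates and the threshold of 0.2 with any fold were added after seeing the data. The fit was tested on simulated data. The members, the lists and the 2 libraries left out were chosen with earlier results of these data known. Named members were the highest per length in each factor, those called, the 3 of smallest p in each direction of each pooled effect, the paralogs of main copies, and Thor, NAT1, foxo, Tsc1 and Myc; other members named by value were chosen after their values were seen. S6k, eEF1alpha1, eEF5, vas and nos were not analysed here. Python 3.11.15 was used for the rest.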

Additional observations from a re-analysis of the deposited data

Results flagged for a closer look

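Named members were checked for a library far from the other 3 of its group. In 129 such checks, 7 libraries stood apart, where chance gives about 1 in 20. Checks of nearly silent copies do not follow that rate. eIF2A was at 237 CPM in replicate 1 of Tsc1 foxoRi on normal food, with 139 to 153 in the others. eIF3j was at 34.7 CPM in replicate 1 of wt under NR, with 21.8 to 23.7 in the others. eIF4A was at 876 CPM in replicate 3 of Tsc1 under NR, with 756 to 776 in the others. The remaining 4 were of nearly silent copies. Where the others of a group are all at 0, 1 library with any count always stands apart. This was so for eIF4E5 on normal food, at 0.507 CPM in replicate 1 of foxoRi and at 0.0774 CPM in replicate 2 of Tsc1 foxoRi. Under NR, eIF4E5 was at 3.08 CPM in replicate 3 of wt, with 0 to 0.328 in the others. eIF3g2 was at 0.638 CPM in replicate 3 of Tsc1 under NR, with 0 to 0.0883 in the others.

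eIF3g2 was also listed for the interaction of genotype and food, with a fitted log2 value of 7.75 (adjusted p = 0.193, edgeR). With 19 of 29 libraries at 0 and the filter passed only through the libraries where it is high, this value depends on the prior count, is no bound and shows no difference. The call was lost with DESeq2, the replicate block, the roX covariate, detected genes as a covariate, no filter and all 31 libraries.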

How the results depend on the processing

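The alternatives gave the same count of called members as the main fit in most comparisons. For the genotype effect the count of 0 became 1 without the filter (eIF4E6) and 3 at an adjusted p under 0.05 with no fold limit. At that threshold the 3 members became 1 with all 31 libraries and 1 with the photoreceptor covariate, and between 1 and 5 when single libraries were left out. At an adjusted p under 0.2 with any fold, the 13 members became 2 with all 31 libraries, 6 with the photoreceptor covariate and 3 to 15 with single libraries left out. For knockdown with temperature the 3 members at that threshold became 5 with DESeq2, 1 without the filter, 0 with all 31 libraries, 1 with the photoreceptor covariate and 0 to 5 with single libraries left out. Without the filter, the adjusted p of eIF2beta for genotype was 0.0615. The 1 called member of the interaction became 0 with DESeq2, without the filter, with all 31 libraries, with detected genes as a covariate, at an adjusted p under 0.05 and with the replicate block, and was 0 to 2 with single libraries left out. Tsc1 against wt on normal food called 1 with DESeq2's size factors, DESeq2 and detected genes as a covariate (eIF2A each time) and 0 to 1 with single libraries left out. Tsc1 foxoRi against foxoRi under NR called 2 with DESeq2, 4 with all 31 libraries (eIF1A, eIF3k, eIF4EHP and eIF2Bbeta) and 0 to 1 with single libraries left out. foxoRi against wt on normal food called 1 with DESeq2 and 0 to 1 with single libraries left out, and Tsc1 against wt under NR 0 to 1. The log2 FC of eIF2beta for food was 0.048 with all 31 libraries against -0.18, and that of eIF4E5 for knockdown ranged from -0.38 to 1.54 as single libraries were left out. Same-numbered replicates had a mean correlation of deviations of 0.02 (-0.41 to 0.29), so that numbers do not pair the samples, and with the replicate block eIF4G1 was at 0.49, eIF2beta at 0.38 and eIF4A at -0.42 for genotype. Values under about 3 counts in a library limit the silent copies.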
